A study of Arabidopsis thaliana with 30 samples.

Results

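Wild-type Arabidopsis thaliana leaves that carried the same labels for genotype, day length and stage, but belonged to different sets of one study, were compared here. The members were found from the sample titles. They are the 3 libraries titled as the wild type for hda6 under 16 h of light, called WT-hda6 below, and the 3 libraries titled only as wild type under 16 h of light, called WT-16 below. These are 6 of the 30 libraries of the series. Both groups are the Col-0 accession with no mutation and no transgene named, grown under 16 h of light per day without heat, and sampled at bolting. The sample labels give leaf as the tissue, whereas the series text speaks of material collected above ground at bolting or flowering. The series text calls the replicates full-sib biological replicates, and names a further kinship for some wild-type samples without saying which. By its title WT-hda6 is the control of the 16 h mutant hda6 (a histone deacetylase). The title of WT-16 names no mutant, and the other mutants at 16 h are cue1 (a plastid phosphoenolpyruvate translocator) and msh1 (an organelle-targeted MutS homologue). No source used here gives dates of sowing, hours of harvest or places of growth, so the origins of a difference between the sets cannot be told apart. The question put to these libraries is which processes vary between sets of the same plant line.

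Several of the processes that differed are known to move with time of day or with stress. The plant circadian clock is a loop of repressors in which LHY and CCA1 peak around dawn and repress genes of the afternoon and evening, among them TOC1, PRR5, GI, ELF4 and FKF1, through a promoter motif called the evening element. Jasmonate is a lipid hormone made from plastid fatty acids after wounding or attack, and its active conjugate removes JAZ repressors from the transcription factor MYC2. The CBF factors switch on COR genes in the cold through a motif called CRT/DRE, and the clock also gates this response.

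The 6 libraries held 17568323 to 22334743 counts in genes. Reads that the counting gave to no gene feature made up 48% to 48.2% in WT-16 and 49.1% to 49.5% in WT-hda6. With the strand setting unknown, such reads need not lie outside genes. The biological coefficient of variation (the spread between replicates beyond counting noise) was 0.119 within WT-16 and 0.109 within WT-hda6. The first principal component of log2 CPM (a gene's count as a share of its library's scaled total) held 61.8% of the variance and separated the groups, with WT-16 between -43.44 and -32.52 and WT-hda6 between 36.68 and 42.65. The second component held 12.5% and set WT-16 replicate 3 (-33.97) apart from WT-16 replicates 1 (22.23) and 2 (7.11). Correlations of log2 CPM were 0.982 to 0.989 within a group and 0.955 to 0.962 between the groups. Markers of flowers, pollen and seeds were low in both groups. The summed level of 12 pollen and anther markers was 4.6 to 5.97 CPM in WT-16 and 5.31 to 7.48 CPM in WT-hda6, with VGD1, PPME1, ATA7, GRP17 and LTP12 at 0 in all 6 libraries, and 9 seed markers summed to at most 0.645 CPM. The 13 floral organ markers summed to 12.4 to 19.4 and 18.3 to 20 CPM, with SUP at 0. Among the 4 of them tested, 1 was called higher and 0 lower (median log2 0.35), with 0 higher without WT-16 replicate 1. The 10 root markers summed to 39.5 to 64.5 and 24.1 to 27.5 CPM, with EXPA18 and RHD6 at 0. Of the 10 root markers, 8 were under 1 CPM in all 6 libraries. All 3 root markers that could be tested were called lower (median log2 -1.65). The call of PYK10, one of them (log2 -0.75), was lost without WT-hda6 replicate 1 (edgeR adjusted p = 0.0869), 2 (0.0572) or 3 (0.0756). It was also lost with all 12 wild-type libraries in the fit (edgeR adjusted p = 0.369). The 16 stem secondary wall markers summed to 219 to 245 and 198 to 228 CPM, with 0 higher and 2 lower calls among 14, and 0 lower calls without WT-16 replicate 1 or 2 or WT-hda6 replicate 1 or 3. The 8 guard cell markers summed to 148 to 169 and 113 to 129 CPM, which do not overlap, with 3 called lower. The part of these tissues in the results below was not tested.

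Between the sets, 4419 of 20416 tested genes were called (edgeR quasi-likelihood test, Benjamini-Hochberg adjusted p under 0.05), or 21.6% of those tested. WT-hda6 was higher in 2016 (9.87%) and lower in 2403 (11.8%). Called genes with a log2 difference of at least 1 in either direction numbered 1063 (5.21%), of which 414 were higher (2.03%) and 649 lower (3.18%). The 3 values of one group did not overlap the 3 of the other in 7932 genes (38.9%). Without WT-16 replicate 2 the number of calls was 2656. All log2 values below are WT-hda6 minus WT-16, so a negative value means a lower level in WT-hda6. The median over all tested genes was 0.01, which is the reference for the medians of the gene lists.

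**Figure D1:**
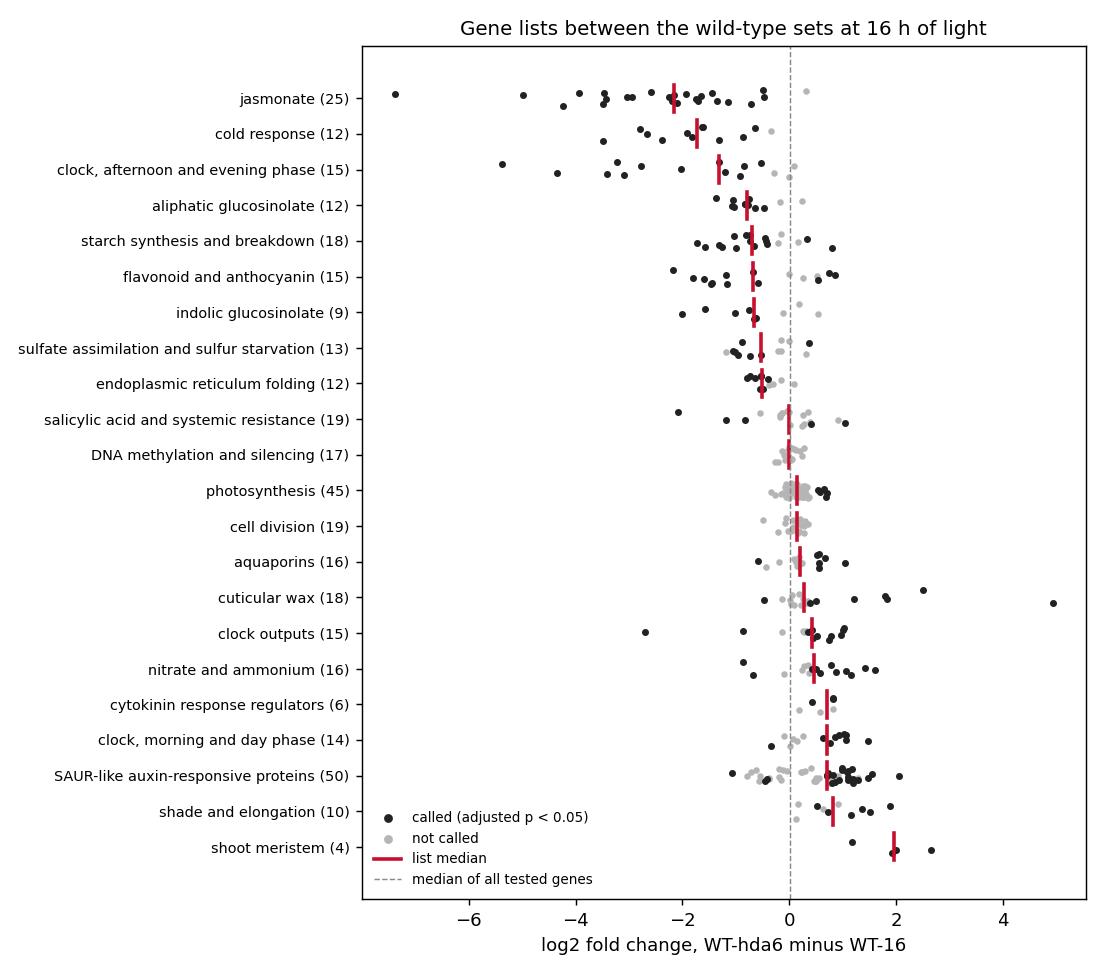
Log2 difference between the sets (WT-hda6 minus WT-16, x axis) for the tested members of 22 gene lists (y axis, number tested in brackets); black points passed the test, grey points did not, red bars are list medians and the dashed line is the median of all tested genes. The jasmonate, cold and evening clock lists lie to the left, with medians of -2.15, -1.73 and -1.31, and the shade list lies to the right with a median of 0.81.

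Clock genes of the afternoon and evening were lower in WT-hda6. Of 15 genes in that list, 12 were called lower and 0 higher, and the median log2 difference was -1.31. FKF1 (AT1G68050, chromosome 1, 25508639 to 25510907, plus strand; RefSeq TAIR10.1), a blue light receptor that clears repressors of flowering, stood at 13.7, 11.8 and 10.7 CPM in WT-16 and 0.269, 0.663 and 0.888 CPM in WT-hda6 (log2 -4.35, SE 0.28, edgeR adjusted p = 2.48e-06). The highest FKF1 value of WT-hda6 lay far below the lowest of WT-16. PRR5, a pseudo-response regulator that represses the morning genes, was at 33.5, 37.7 and 30.1 CPM in WT-16 and 2.78, 4.24 and 4.94 CPM in WT-hda6 (log2 -3.10, SE 0.17, edgeR adjusted p = 1.09e-06). PRR3, a relative of it that protects TOC1 from degradation, was at 13.8, 13.8 and 15.8 CPM in WT-16 and 1.12, 1.94 and 0.999 CPM in WT-hda6 (log2 -3.42, SE 0.21, edgeR adjusted p = 1.99e-06). In both genes each WT-hda6 library was below each WT-16 library. ELF4, part of the evening complex that represses growth genes at night, was at 15.8, 16.8 and 10.5 CPM in WT-16 and 2.73, 1.63 and 1.78 CPM in WT-hda6 (log2 -2.78, SE 0.24, edgeR adjusted p = 1.64e-05). COR27, a night-phased regulator that is also induced by cold, was at 2.12, 3.4 and 3.59 CPM in WT-16 and 0.0448, 0.153 and 0 CPM in WT-hda6 (log2 -5.38, SE 0.55, edgeR adjusted p = 7.34e-05), with 180 counts over WT-16 and only 4 over WT-hda6, so its log2 value is imprecise. GI, a partner of FKF1 in day-length sensing, showed a smaller difference, at 130, 139 and 109 CPM in WT-16 and 46.8, 54.7 and 50.4 CPM in WT-hda6 (log2 -1.31, SE 0.11, edgeR adjusted p = 1.58e-05).

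The remaining evening genes ranged from a large difference to none. ELF3, the scaffold of the evening complex, fell by 0.92 on the log2 scale, and the histone demethylase gene JMJ30 by 1.21. TOC1, the evening repressor of CCA1 and LHY, was at 38, 32.9 and 28.4 CPM in WT-16 and 17.3, 19.9 and 17.6 CPM in WT-hda6 (log2 -0.86, SE 0.12, edgeR adjusted p = 0.000481). LUX, the DNA-binding member of the evening complex, was at 15.5, 18.4 and 20.8 CPM in WT-16 and 11.7, 11 and 15.4 CPM in WT-hda6 (log2 -0.52, SE 0.15, edgeR adjusted p = 0.0279). The LUX call was lost without 4 of the libraries, with adjusted p 0.085 without WT-16 replicate 2, 0.0592 without WT-16 replicate 3, 0.101 without WT-hda6 replicate 1 and 0.0819 without WT-hda6 replicate 2. Its paralog BOA was at 2.63, 2.99 and 2.24 CPM in WT-16 and 0.582, 0.255 and 1.11 CPM in WT-hda6 (log2 -2.02, SE 0.41, edgeR adjusted p = 0.00492). Of the exonic bases of BOA and LUX, shares of 0.459 and 0.178 overlap exons of the other strand, so their counts are uncertain. AT4G33980, whose product RefSeq does not characterise, had one of the larger differences, -3.23 (SE 0.49). The 3 genes not called were the photoreceptor ZTL (log2 -0.00), its relative LKP2 (-0.29, adjusted p = 0.126, and 0.0213 without WT-16 replicate 3) and the CCA1 repressor CHE (0.08). ZTL is known to be regulated mainly as a protein rather than as a transcript.

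The evening element, AAAATATCT on either strand, was searched in the 300 bases before each annotated gene start (RefSeq, TAIR10.1). It was present in 6 of the 15 evening genes and in 1 of the 14 morning genes. Among all 20412 windows of tested nuclear genes 2.84% held it. The share was 8.32% among the 649 genes called lower by at least 1 and 1.69% among the 414 called higher by at least 1. These shares describe letters, not binding. The last 250 bases before the start of 3 of the evening genes that hold it are shown 5′ to 3′ in the gene's direction, as examples of a large (FKF1, PRR5) and a smaller (TOC1) difference, with the motif (or its reverse complement AGATATTTT) in capitals.
FKF1 (chr1:25508389-25508638, plus strand): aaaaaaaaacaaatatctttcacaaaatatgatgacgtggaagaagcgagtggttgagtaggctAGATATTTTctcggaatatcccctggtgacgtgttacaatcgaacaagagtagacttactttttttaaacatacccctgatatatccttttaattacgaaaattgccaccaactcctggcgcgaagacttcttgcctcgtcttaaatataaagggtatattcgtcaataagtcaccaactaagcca
PRR5 (chr5:8358547-8358796, minus strand): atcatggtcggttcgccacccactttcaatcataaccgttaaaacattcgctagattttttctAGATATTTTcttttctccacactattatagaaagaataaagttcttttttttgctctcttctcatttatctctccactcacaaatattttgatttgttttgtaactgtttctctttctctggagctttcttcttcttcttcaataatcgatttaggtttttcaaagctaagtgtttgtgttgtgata
TOC1 (chr5:24674713-24674962, plus strand): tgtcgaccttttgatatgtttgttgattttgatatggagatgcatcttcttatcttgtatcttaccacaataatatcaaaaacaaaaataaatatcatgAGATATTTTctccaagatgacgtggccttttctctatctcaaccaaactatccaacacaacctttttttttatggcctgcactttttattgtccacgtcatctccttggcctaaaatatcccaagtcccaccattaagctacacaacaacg
FKF1, PRR5 and TOC1 each carry the motif once, as its reverse complement. The G-box CACGTG, a site of light and jasmonate regulated factors, was in 7 of 14 morning and 2 of 15 evening windows, against 7.69% of all. It was in 14.6% of the genes called lower by at least 1 and 7.73% of those called higher by at least 1. Of 25 jasmonate windows, 4 held it.

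Morning genes were mostly higher in WT-hda6. Of 14 genes, 8 were called higher and 1 lower, with a median of 0.70. LHY (AT1G01060, chromosome 1, 33365 to 37871, minus strand), a dawn repressor, was at 34, 37.8 and 49.5 CPM in WT-16 and 128, 117 and 93.1 CPM in WT-hda6 (log2 1.47, SE 0.15, edgeR adjusted p = 7.21e-05). Its partner CCA1 was at 126, 129 and 137 CPM in WT-16 and 230, 214 and 220 CPM in WT-hda6 (log2 0.76, SE 0.09, edgeR adjusted p = 0.000151). All 3 WT-hda6 values of both genes lay above all WT-16 values. The LNK coactivators of clock genes rose as well. LNK2 was at 200, 222 and 225 CPM in WT-16 and 493, 411 and 404 CPM in WT-hda6 (log2 1.02, SE 0.11, edgeR adjusted p = 9.6e-05), and LNK3 and LNK4 rose by 0.93 and 1.05. Among the REVEILLE factors, relatives of LHY, RVE8 was at 23, 19.9 and 21.8 CPM in WT-16 and 43, 37.9 and 35.3 CPM in WT-hda6 (log2 0.85, SE 0.10, edgeR adjusted p = 0.000225), while RVE4 rose by 0.64 and RVE1 by 1.06. PRR9, the earliest of the pseudo-response regulators, was at 50.6, 52.3 and 44 CPM in WT-16 and 45.2, 46.4 and 56.2 CPM in WT-hda6 (log2 0.01, SE 0.11, edgeR adjusted p = 0.961), and its groups overlapped. PRR7, which follows PRR9, was at 201, 206 and 184 CPM in WT-16 and 154, 162 and 149 CPM in WT-hda6 (log2 -0.35, SE 0.09, edgeR adjusted p = 0.019), and this call was lost without WT-16 replicate 1 (adjusted p = 0.059) or 2 (0.0986) and without WT-hda6 replicate 1 (0.0676) or 3 (0.0634). RVE2, RVE7, LNK1 and AT5G52660 had log2 values of 0.06, 0.15, 0.25 and -0.10 and were not called.

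**Figure D2:**
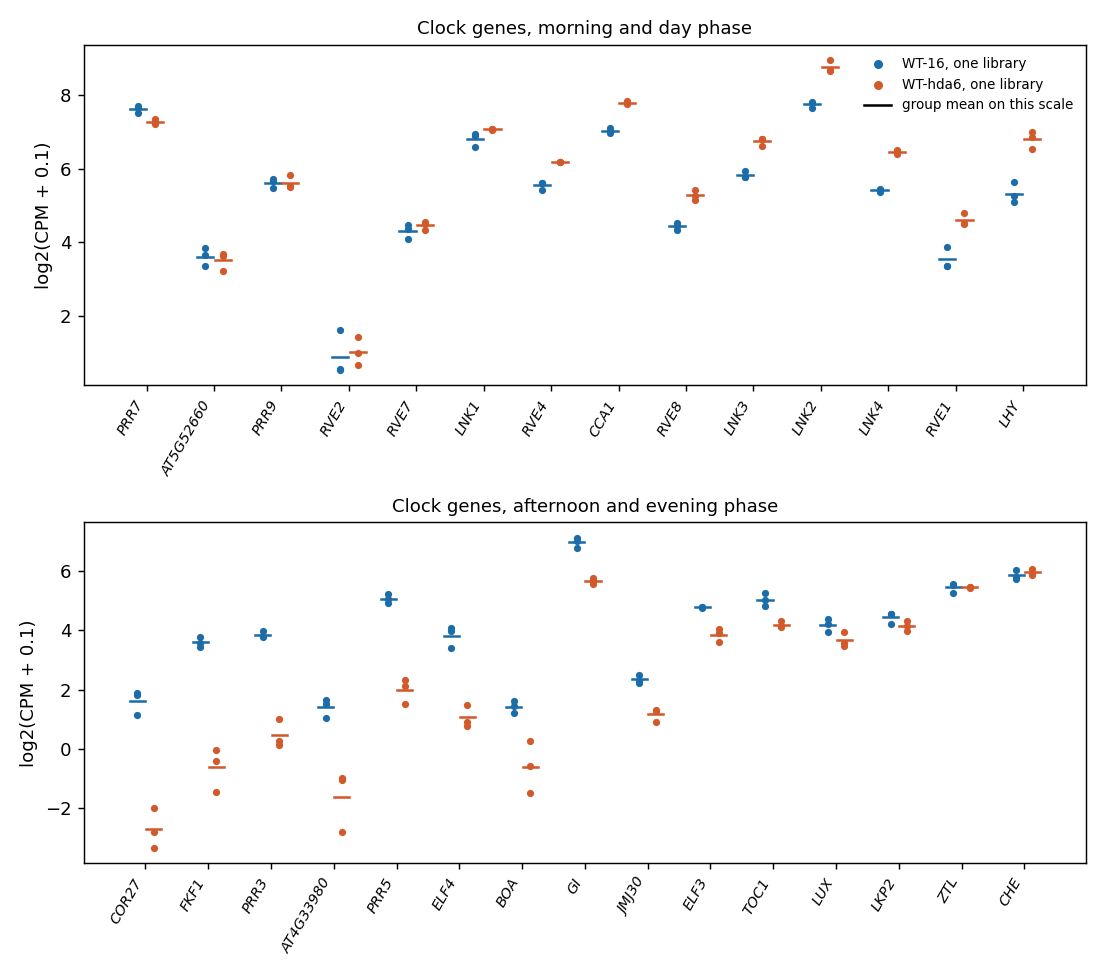
Levels of the tested clock genes in each library as log2(CPM + 0.1), with WT-16 in blue and WT-hda6 in orange; points are libraries, bars are group means on this scale, and genes run from the lowest to the highest fitted log2 difference. For FKF1 the WT-hda6 libraries sit at 0.269 to 0.888 CPM and the WT-16 libraries at 10.7 to 13.7 CPM, and for LHY the order of the groups is the other way round.

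Genes that the clock drives followed both patterns. GRP7, an RNA-binding protein with an evening peak, was one of the clearest differences, at 1065, 1100 and 1010 CPM in WT-16 and 151, 159 and 176 CPM in WT-hda6 (log2 -2.71, SE 0.11, edgeR adjusted p = 1.27e-07), and its paralog GRP8 fell by 0.88. CDF1, a repressor of the flowering gene CO that is removed by FKF1, was at 26.7, 28.9 and 33.2 CPM in WT-16 and 57.3, 55.3 and 66.5 CPM in WT-hda6 (log2 1.01, SE 0.11, edgeR adjusted p = 0.000103). The list of 15 clock outputs held 9 higher and 2 lower calls, with a median of 0.43. CO itself had a log2 of -0.14 and was not called, at a low mean of 1.25 CPM in WT-16 (scaled over all 30 libraries).

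The levels of LHY and FKF1 were followed over all 10 groups of the series, scaled over all 30 libraries, so they differ slightly from those above. LHY had its highest mean in WT-hda6, 120 ± 19 CPM (SD, n = 3), followed by 51.1 ± 7.37 in hda6 at 16 h and 43.5 ± 8.44 in WT-16. The spreads of the latter pair overlap. In the other 7 groups LHY lay between 0.865 ± 0.0844 CPM (cue1, 12 h) and 6.96 ± 0.387 CPM (wild type, 12 h), and it was at 3.5 ± 0.787 in cue1 and 1.48 ± 0.128 in msh1 at 16 h. Among the 16 h groups FKF1 was lowest in hda6, at 0.391 ± 0.344 CPM, and WT-hda6, at 0.647 ± 0.334, whose spreads overlap. It was at 13 ± 1.71 in WT-16, 92 ± 4.84 in cue1 and 95.2 ± 2.65 in msh1. In hda6, FKF1 was far below its level in WT-16, whereas the LHY spreads of these groups overlapped. For FKF1 the means of cue1 and msh1 differed by less than the SD of cue1. In both genes WT-16 stood between WT-hda6 on one side and cue1 and msh1 on the other.

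**Figure D3:**
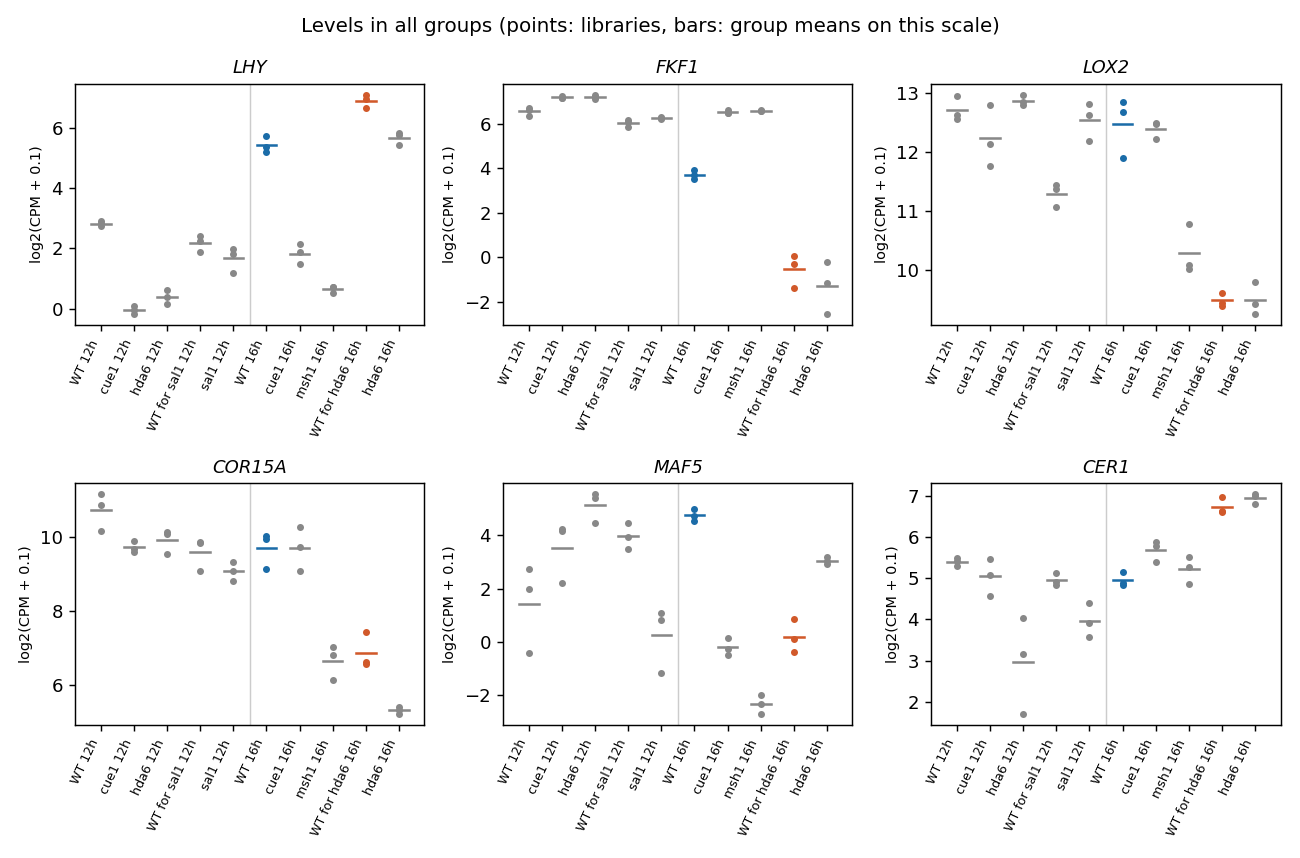
Levels of 6 genes as log2(CPM + 0.1) in the 10 groups of the series, scaled over all 30 libraries; points are libraries, bars are group means on this scale, blue is WT-16, orange is WT-hda6, and the grey line divides 12 h from 16 h of light. Among the 5 groups at 16 h, LHY is highest in WT-hda6, and FKF1 is low in WT-hda6 and hda6. In LOX2 the 3 values of WT-hda6 lie below those of all 5 groups at 12 h.

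Nearly all measured jasmonate genes were lower in WT-hda6. Of 25 members tested, 24 were called lower in WT-hda6 and 0 higher, with a median of -2.15. Leaving out any 1 library kept 24 lower calls. The first steps of synthesis were all lower: LOX2, the plastid lipoxygenase that starts jasmonate production in wounded leaves, was at 6827, 6092 and 3555 CPM in WT-16 and 652, 630 and 734 CPM in WT-hda6 (log2 -3.03, SE 0.22, edgeR adjusted p = 6.15e-06). AOS, the allene oxide synthase of the next step, was at 925, 944 and 633 CPM in WT-16 and 180, 166 and 216 CPM in WT-hda6 (log2 -2.15, SE 0.16, edgeR adjusted p = 9.14e-06). AOC1, an allene oxide cyclase, was at 338, 356 and 257 CPM in WT-16 and 27.1, 27.7 and 31.3 CPM in WT-hda6 (log2 -3.47, SE 0.14, edgeR adjusted p = 1.27e-07). In each of these genes the highest WT-hda6 value lay below the lowest WT-16 value, and the low end of WT-16 was replicate 3. AOC2 fell by 2.59 (reads of the near-identical AOC genes may be split between them), and OPR3, the peroxisomal reductase, was at 167, 158 and 130 CPM in WT-16 and 46, 49.7 and 49.6 CPM in WT-hda6 (log2 -1.64, SE 0.11, edgeR adjusted p = 3.25e-06). Low LOX2 was not limited to WT-hda6: over the 16 h groups it was at 5920 ± 1873 CPM in WT-16, 5418 ± 545 in cue1, 1293 ± 397 in msh1, 717 ± 59.1 in WT-hda6 and 727 ± 142 in hda6 (SD, n = 3). JAR1, which makes the active conjugate with isoleucine, fell less, by 0.48 (adjusted p = 0.00425).

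In signalling, JAZ repressor genes, themselves induced by jasmonate, were lower. JAZ1 was at 39, 40.8 and 39.9 CPM in WT-16 and 6.72, 10.7 and 7.88 CPM in WT-hda6 (log2 -2.25, SE 0.14, edgeR adjusted p = 2.45e-06), and JAZ10 was at 11.4, 15.5 and 18.9 CPM in WT-16 and 1.93, 1.99 and 2.05 CPM in WT-hda6 (log2 -2.94, SE 0.20, edgeR adjusted p = 4.73e-06). JAZ7, near the detection limit at 0.235 to 0.763 CPM, was the one member not called (log2 0.30). MYC2, the main transcription factor of the pathway, was at 171, 161 and 128 CPM in WT-16 and 42.3, 46.3 and 48.4 CPM in WT-hda6 (log2 -1.75, SE 0.12, edgeR adjusted p = 3.95e-06), but a share of 0.985 of its exonic bases overlaps a gene on the other strand. Enzymes that inactivate the hormone were lower too. CYP94B3, which hydroxylates jasmonoyl-isoleucine (AT3G48520, chromosome 3, 17974853 to 17976774, minus strand), was at 8.84, 14.6 and 13.1 CPM in WT-16 and 0, 0.102 and 0.111 CPM in WT-hda6 (log2 -7.38, SE 0.42, edgeR adjusted p = 1.1e-06), with 715 counts over WT-16 against 4 over WT-hda6. ST2A, a hydroxyjasmonate sulfotransferase, was at 98.4, 102 and 64.5 CPM in WT-16 and 1.75, 6.33 and 6.27 CPM in WT-hda6 (log2 -4.23, SE 0.34, edgeR adjusted p = 1.2e-05), and CYP94C1, which acts after CYP94B3, fell by 2.09.

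Jasmonate targets split by how the replicates of WT-16 behaved. VSP2, a vegetative storage protein of the MYC2 branch, was even across WT-16, at 247, 229 and 227 CPM in WT-16 and 10.1, 11 and 25 CPM in WT-hda6 (log2 -3.94, SE 0.28, edgeR adjusted p = 5.81e-06). VSP1 was at 119, 165 and 259 CPM in WT-16 and 13.6, 16.2 and 20.6 CPM in WT-hda6 (log2 -3.43, SE 0.26, edgeR adjusted p = 9.3e-06). The defensin PDF1.2, a target of the branch shared with ethylene, was at 69.8, 78.6 and 541 CPM in WT-16 and 6.04, 8.16 and 7.77 CPM in WT-hda6 (log2 -4.98, SE 0.75, edgeR adjusted p = 0.00081). WT-16 replicate 3 stood well above the other 2 libraries of its group here, yet no WT-hda6 library reached any of them. The same held for its near-identical relatives PDF1.2c, at 25.1, 16 and 232 CPM in WT-16 and 0.582, 0.357 and 0.777 CPM in WT-hda6 (log2 -7.32, SE 1.18, edgeR adjusted p = 0.00132), and PDF1.3, at 15.5, 16.6 and 191 CPM in WT-16 and 1.7, 1.28 and 0.999 CPM in WT-hda6 (log2 -5.79, SE 1.05, edgeR adjusted p = 0.0027). Without WT-16 replicate 3 the PDF1.3 difference was -3.58. Reads of these defensin genes may be split between copies. Fewer cells of a type and less RNA per cell cannot be told apart in such whole-leaf libraries, here or below.

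**Figure D4:**
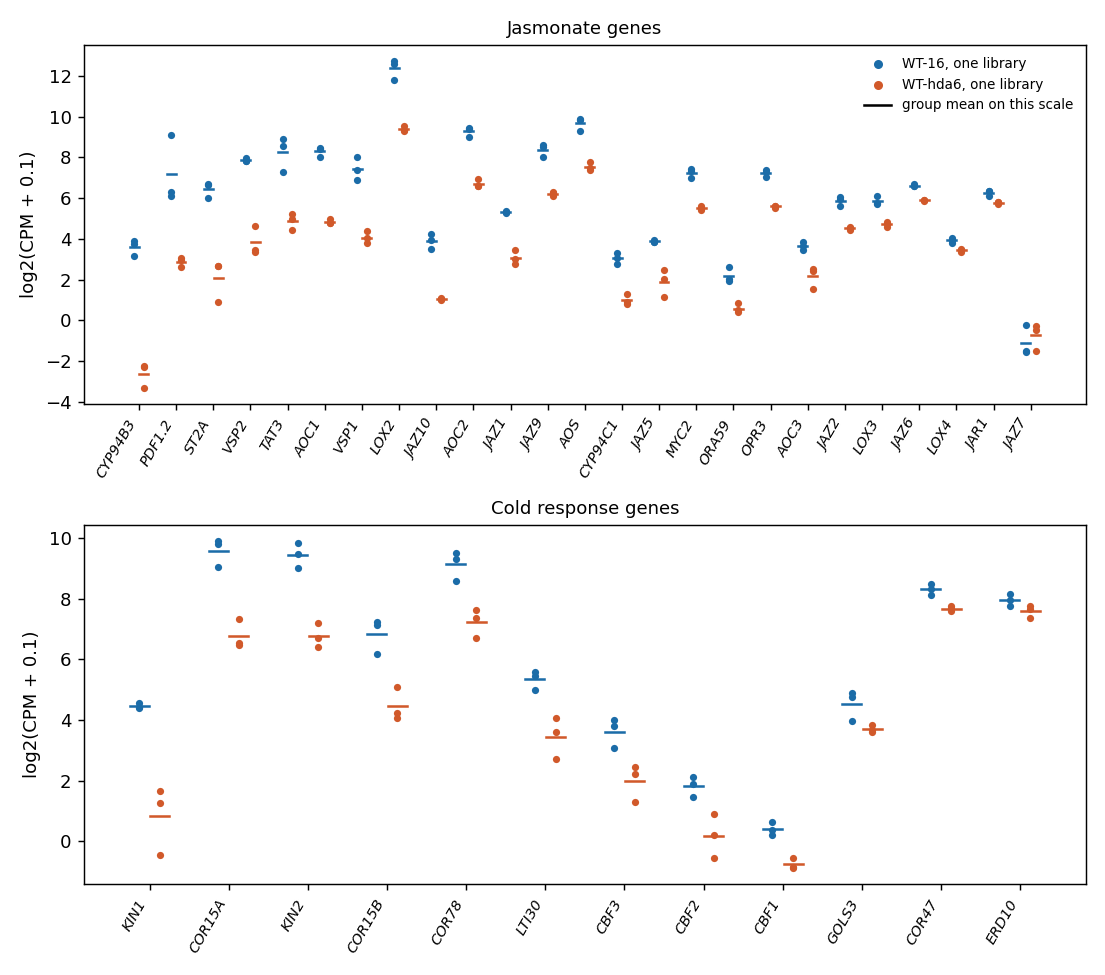
Levels of the tested jasmonate (top) and cold response (bottom) genes in each library as log2(CPM + 0.1), WT-16 in blue and WT-hda6 in orange; points are libraries and bars group means on this scale. In 24 of 25 jasmonate genes and 11 of 12 cold genes the groups do not overlap, against 38.9% of all tested genes. WT-16 replicate 3 is the high point of PDF1.2 at 541 CPM.

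Cold response genes were lower in WT-hda6, with 11 of 12 called lower, 0 higher and a median of -1.73. COR15A, a plastid protein that protects membranes in frozen cells, was at 952, 898 and 526 CPM in WT-16 and 92.3, 89.1 and 161 CPM in WT-hda6 (log2 -2.80, SE 0.27, edgeR adjusted p = 3.9e-05). KIN1, a small hydrophilic protein of the cold response, was at 21.1, 21.4 and 23.7 CPM in WT-16 and 0.627, 3.06 and 2.33 CPM in WT-hda6 (log2 -3.49, SE 0.32, edgeR adjusted p = 2.86e-05), and its neighbour KIN2 fell by 2.66. COR78, the classical reporter gene of cold and drought, was at 724, 631 and 384 CPM in WT-16 and 104, 163 and 196 CPM in WT-hda6 (log2 -1.91, SE 0.25, edgeR adjusted p = 0.00036). In COR15A and COR78 replicate 3 was the lowest library of WT-16, and in all 3 genes each WT-hda6 value was below each WT-16 value. Over the 16 h groups COR15A was at 854 ± 254 CPM in WT-16, 868 ± 344 in cue1, 104 ± 30.4 in msh1, 122 ± 43.2 in WT-hda6 and 40 ± 2.68 in hda6 (SD, n = 3), and the values of msh1 and WT-hda6 overlapped. CBF3, a transcription factor upstream of them, was at 15.8, 13.9 and 8.26 CPM in WT-16 and 2.37, 4.54 and 5.39 CPM in WT-hda6 (log2 -1.64, SE 0.29, edgeR adjusted p = 0.00248), and its copies CBF2 and CBF1 had log2 values of -1.62 and -1.31. The CBF1 call was lost without WT-16 replicate 1 (adjusted p = 0.0865) and without WT-hda6 replicate 2 (0.0615) or 3 (0.0634). ERD10, a dehydrin, was not called (log2 -0.35, SE 0.13, edgeR adjusted p = 0.0788), but was called without WT-16 replicate 3 (adjusted p = 0.0188) and by DESeq2 (0.0343). Reads of the near-identical CBF, KIN and COR15 copies may be split.

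The core of the CRT/DRE motif, CCGAC on either strand, was in 5 of the 12 cold gene windows of 300 bases, 41.7%, against 14.9% of all windows. It was in 18.5% of the genes called lower by at least 1. COR15A and COR78 are shown in the last 250 bases before their starts, with CCGAC or its reverse complement in capitals, since both are direct CBF targets.
COR15A (chr2:17712331-17712580, minus strand): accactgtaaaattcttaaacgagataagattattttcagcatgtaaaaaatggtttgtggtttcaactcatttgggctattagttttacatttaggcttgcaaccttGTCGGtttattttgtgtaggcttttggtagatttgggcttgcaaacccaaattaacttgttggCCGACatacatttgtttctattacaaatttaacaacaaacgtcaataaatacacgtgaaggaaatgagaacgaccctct
COR78 (chr5:21240467-21240716, plus strand): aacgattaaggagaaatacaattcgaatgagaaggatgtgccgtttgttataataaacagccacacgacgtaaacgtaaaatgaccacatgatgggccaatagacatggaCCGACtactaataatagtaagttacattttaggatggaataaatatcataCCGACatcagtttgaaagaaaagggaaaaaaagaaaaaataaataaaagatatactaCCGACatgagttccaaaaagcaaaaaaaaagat
COR15A holds the core in both orientations and COR78 holds it 3 times. Drought and abscisic acid genes, part of which share the motif, were mixed, with 3 higher and 6 lower of 18, and 1 higher without WT-16 replicate 2 or 3 or WT-hda6 replicate 2 or 3. RD20, a caleosin, was at 66.4, 60.1 and 40.7 CPM in WT-16 and 19.7, 27.6 and 35.9 CPM in WT-hda6 (log2 -1.01, SE 0.21, edgeR adjusted p = 0.00631), while RD29B, P5CS1 and RAB18 were not called, with log2 values of -0.04, 0.01 and -0.15.

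Glucosinolate synthesis was lower in WT-hda6 in both branches. Of 12 genes of the aliphatic branch, which makes sulfur compounds from methionine, 10 were called lower and 0 higher (median -0.80). MAM3, the methionine chain elongation enzyme, was at 65.5, 65.6 and 54.1 CPM in WT-16 and 23.3, 21.9 and 26.3 CPM in WT-hda6 (log2 -1.37, SE 0.11, edgeR adjusted p = 1.15e-05), and the sulfotransferase SOT18 fell by 0.84. Of 9 genes of the indolic branch, which starts from tryptophan, 6 were called lower and 0 higher (median -0.66). CYP79B2, its first enzyme, was at 163, 168 and 160 CPM in WT-16 and 41.1, 41.4 and 39.4 CPM in WT-hda6 (log2 -2.00, SE 0.09, edgeR adjusted p = 1.82e-07), and CYP79B3 was at 173, 159 and 155 CPM in WT-16 and 57.3, 52.5 and 52.6 CPM in WT-hda6 (log2 -1.58, SE 0.09, edgeR adjusted p = 1.16e-06). The 3 values within each group lay close together in both. The transcription factor genes MYB28, MYB29, MYB34 and MYB51, which control these branches, had log2 values of 0.24, -0.17, -0.13 and 0.17 and were not called. MYB28 was called higher without WT-hda6 replicate 3 (0.33, adjusted p = 0.041) and MYB29 lower without WT-16 replicate 3 (-0.30, adjusted p = 0.0345).

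Sulfate assimilation, which feeds glucosinolates, had 6 of 13 genes lower and 1 higher (median -0.53), with 4 lower without WT-hda6 replicate 1. APR3, an adenylylsulfate reductase, was at 85.8, 77.6 and 82.5 CPM in WT-16 and 46.1, 47.5 and 38.9 CPM in WT-hda6 (log2 -0.89, SE 0.10, edgeR adjusted p = 0.000116), and APS3, an ATP sulfurylase, fell by 0.97. LSU2, a marker of sulfur shortage, was at 18.8, 13.4 and 17.8 CPM in WT-16 and 7.07, 8.93 and 8.83 CPM in WT-hda6 (log2 -1.01, SE 0.15, edgeR adjusted p = 0.000803). APR2 was the gene called higher, with a log2 of 0.36, and it lost its call without any 1 library other than WT-16 replicate 3 (adjusted p 0.0534 to 0.143).

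Starch genes were mostly lower. Of 18, 13 were called lower and 2 higher, with a median of -0.69. The list had 10 lower calls without WT-16 replicate 2, and 1 higher call without any 1 library other than WT-hda6 replicate 1. SEX1, the glucan water dikinase that opens starch granules for breakdown at night, was at 828, 911 and 675 CPM in WT-16 and 266, 278 and 267 CPM in WT-hda6 (log2 -1.57, SE 0.12, edgeR adjusted p = 9.83e-06). PWD, the enzyme that acts after SEX1, was at 207, 233 and 216 CPM in WT-16 and 70.1, 64.1 and 64.4 CPM in WT-hda6 (log2 -1.72, SE 0.09, edgeR adjusted p = 8.32e-07), and the debranching enzyme ISA3 fell by 1.31. The groups did not overlap in these 3 genes. BAM9, a regulatory amylase relative, rose by 0.80, and the granule-bound synthase GBSS1 (-0.15) was not called. The list of dark and sugar response genes, which also holds the sugar-induced BAM5, was mixed (7 higher and 6 lower of 16). BAM5, a cytosolic amylase that sugar induces, was at 220, 270 and 325 CPM in WT-16 and 30.5, 27.8 and 25.4 CPM in WT-hda6 (log2 -3.28, SE 0.15, edgeR adjusted p = 2.47e-07), and GPT2, a plastid sugar phosphate carrier, was at 5.36, 5.16 and 13 CPM in WT-16 and 1.97, 2.25 and 0.888 CPM in WT-hda6 (log2 -2.20, SE 0.40, edgeR adjusted p = 0.00293). BXL1, a cell wall xylosidase, was at 48, 44.5 and 57.9 CPM in WT-16 and 141, 156 and 137 CPM in WT-hda6 (log2 1.53, SE 0.11, edgeR adjusted p = 6.7e-06), and TPS11, of the trehalose phosphate synthase family, rose by 1.22.

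Flavonoid genes were mixed. Of 15, 9 were called lower and 3 higher (median -0.68). The lower genes included the late anthocyanin enzymes: DFR was at 19.9, 25.3 and 30.8 CPM in WT-16 and 9.45, 8.27 and 9.72 CPM in WT-hda6 (log2 -1.47, SE 0.15, edgeR adjusted p = 8.15e-05), and LDOX, the next enzyme, was at 22.4, 22.9 and 33.7 CPM in WT-16 and 5.24, 8.27 and 13 CPM in WT-hda6 (log2 -1.59, SE 0.26, edgeR adjusted p = 0.00153). PAP1, the MYB factor that activates them, was at 13.4, 12.6 and 6.96 CPM in WT-16 and 1.3, 2.45 and 3.61 CPM in WT-hda6 (log2 -2.18, SE 0.33, edgeR adjusted p = 0.000849). Of the early genes, chalcone synthase TT4 was higher, at 110, 132 and 142 CPM in WT-16 and 209, 161 and 189 CPM in WT-hda6 (log2 0.54, SE 0.12, edgeR adjusted p = 0.00993), but was not called with all 12 wild-type libraries in the fit (0.53, adjusted p = 0.184). The flavonol synthase FLS1 rose by 0.86. F3H, the third called higher, overlaps a gene on the other strand over a share of 0.938 of its exonic bases, and it lost its call without WT-hda6 replicate 1 (adjusted p = 0.0879) or 3 (0.0909).

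Growth-related lists lay on the other side. Of 10 shade and elongation genes, 6 were called higher and 0 lower (median 0.81), and 4 were called higher without WT-16 replicate 2. HFR1, a shade-induced factor that limits elongation, was at 1.47, 1.23 and 2.02 CPM in WT-16 and 3, 5.46 and 5.16 CPM in WT-hda6 (log2 1.50, SE 0.29, edgeR adjusted p = 0.0039). IAA29, an auxin repressor raised in shade, was at 4.8, 3.99 and 5.07 CPM in WT-16 and 8.37, 10.5 and 16.9 CPM in WT-hda6 (log2 1.35, SE 0.24, edgeR adjusted p = 0.00236), and the homeobox gene HB-2 rose by 0.72. No WT-16 value of these genes reached the lowest value of WT-hda6. SAUR genes, small auxin-induced growth genes grouped by product text after their values were seen, had 22 higher and 3 lower calls among 50 tested (median 0.71), with 14 higher calls without WT-16 replicate 2 and also 14 without WT-hda6 replicate 3, and 1 lower call without WT-16 replicate 2 or WT-hda6 replicate 1 or 3. Many SAUR genes are near-identical neighbours, so reads may be split between them. Aux/IAA genes, grouped in the same way, had 7 higher and 1 lower of 19. Without WT-16 replicate 2 the Aux/IAA group had 4 higher calls, and it had 0 lower without WT-16 replicate 1 or 2 or WT-hda6 replicate 3.

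Aquaporins and expansins showed smaller shifts. Of 16 aquaporins 6 were called higher and 1 lower (median 0.20). TIP2;1, a vacuolar water and ammonia channel, was at 256, 250 and 425 CPM in WT-16 and 640, 591 and 695 CPM in WT-hda6 (log2 1.05, SE 0.18, edgeR adjusted p = 0.00226), with a share of 0.14 of its exonic bases overlapped by the other strand. PIP1;3 of the plasma membrane rose by 0.66. Among 8 expansins, which loosen cell walls, 3 were higher and 2 lower (1 lower without WT-16 replicate 2 or any 1 WT-hda6 library), and EXPA8 was at 30, 35.7 and 52.6 CPM in WT-16 and 91.8, 70.9 and 87.5 CPM in WT-hda6 (log2 1.08, SE 0.18, edgeR adjusted p = 0.0016). TCH4, a wall-modifying enzyme induced by touch, was at 4.04, 4.17 and 8.44 CPM in WT-16 and 14.6, 17.1 and 21.4 CPM in WT-hda6 (log2 1.65, SE 0.25, edgeR adjusted p = 0.000895). Of 6 cytokinin-induced response regulators 3 were called higher and 0 lower, ARR7 rising by 0.82. The list had 1 and 5 higher calls without WT-16 replicates 2 and 3, and 1 without WT-hda6 replicate 3. ARR4 lost its call without any one of WT-16 replicates 1 and 2 or WT-hda6 replicates 1, 2 and 3 (adjusted p 0.0747 to 0.156) and with all 16 h libraries in the fit (0.0713), and ARR5 lost its call without WT-16 replicate 2 (0.0547) or WT-hda6 replicate 3 (0.0607).

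Cuticular wax genes, a list added after the values were seen, had 7 higher and 1 lower of 18 (median 0.28). Members of several steps of wax synthesis were among the higher genes. CER1, which makes alkanes, was at 27.4, 32.9 and 26.4 CPM in WT-16 and 92.4, 90.5 and 118 CPM in WT-hda6 (log2 1.80, SE 0.13, edgeR adjusted p = 5.39e-06). CER4, the reductase that makes primary alcohols, was at 0.909, 1.17 and 1.84 CPM in WT-16 and 6.45, 7.91 and 8.33 CPM in WT-hda6 (log2 2.50, SE 0.25, edgeR adjusted p = 5.75e-05). MAH1, which oxidises alkanes to secondary alcohols and ketones and is known from stems, was near 0 in WT-16, at 0.202, 0.0587 and 0.0898 CPM in WT-16 and 4.21, 3.83 and 3.28 CPM in WT-hda6 (log2 4.92, SE 0.39, edgeR adjusted p = 1.12e-05). WSD1, a wax ester synthase, was at 2.22, 2.11 and 1.75 CPM in WT-16 and 7.12, 7.35 and 7.11 CPM in WT-hda6 (log2 1.83, SE 0.18, edgeR adjusted p = 4.71e-05). Each WT-hda6 library was above each WT-16 library in these 4 genes, and the WT-16 values of MAH1 and CER4 were uneven among themselves. Genes of fatty acid elongation to very long chains were less uniform: KCS1 rose by 1.21, whereas CER6, KCR1 and CER10 were not called (0.04, 0.17 and -0.13). CER1 had its 2 highest group means in WT-hda6, 107 ± 16.3 CPM, and hda6 at 16 h, 123 ± 10.9 CPM, against 31.1 ± 3.95 CPM in WT-16.

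KNOX genes of the shoot meristem were low in all libraries but higher in WT-hda6. The 4 tested genes of 9 in the list were all called higher (median 1.95), and 2 were without WT-16 replicate 2 or WT-hda6 replicate 2. STM, the gene that maintains the meristem, was at 6.67, 1.17 and 0.943 CPM in WT-16 and 11.6, 14.1 and 7.38 CPM in WT-hda6 (log2 1.91, SE 0.53, edgeR adjusted p = 0.0255). KNAT1, which acts in stems and meristems, was at 4.19, 1.11 and 1.35 CPM in WT-16 and 7.21, 11.9 and 7.55 CPM in WT-hda6 (log2 1.99, SE 0.40, edgeR adjusted p = 0.00458). KNAT2, at 0.707, 0.0587 and 0.135 CPM in WT-16 and 1.97, 2.86 and 0.944 CPM in WT-hda6 (log2 2.65, SE 0.64, edgeR adjusted p = 0.0129), and KNAT6, at 2.42, 1.58 and 1.57 CPM in WT-16 and 4.57, 4.95 and 3.05 CPM in WT-hda6 (log2 1.17, SE 0.27, edgeR adjusted p = 0.00952), had the same order. WT-16 replicate 1 was the highest of its group in each. Summed over the 9 markers, levels were 4.75 to 15 CPM in WT-16 and 19.7 to 35.4 CPM in WT-hda6, with WUS at 0 in all 6 libraries. The calls rest on few libraries: STM had a log2 of 3.39 without WT-16 replicate 1, and lost its call without WT-16 replicate 2 (adjusted p = 0.0917) and without each WT-hda6 library (0.0732, 0.0831 and 0.0501). DESeq2 did not call it (adjusted p = 0.134). KNAT2 had a log2 of 4.17 without WT-16 replicate 1 and lost its call without WT-16 replicate 2 (0.051) or WT-hda6 replicate 2 (0.0537). With the spread estimated over all 12 wild-type libraries none of the 4 was called (edgeR adjusted p 0.0543 to 0.159). The part of stem or meristem tissue in other results was not tested.

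Flowering genes differed in part. The list of FLC and MAF repressors had 0 higher and 2 lower calls of 6, and that of flowering integrators and the age pathway 2 higher and 5 lower of 17 (median -0.01). The latter had 1 higher call without WT-16 replicate 1 or 2 or WT-hda6 replicate 1 or 2, and 3 lower without WT-16 replicate 2. MAF5 (AT5G65080, chromosome 5, 25997504 to 26002619, plus strand), a relative of the flowering repressor FLC, was at 29.1, 24.5 and 21.6 CPM in WT-16 and 0.627, 0.918 and 1.61 CPM in WT-hda6 (log2 -4.60, SE 0.24, edgeR adjusted p = 5.0e-07). MAF4, its neighbour on the chromosome, was at 5.1, 3.29 and 3.23 CPM in WT-16 and 0.806, 0.918 and 2.11 CPM in WT-hda6 (log2 -1.62, SE 0.36, edgeR adjusted p = 0.00823). The groups did not overlap in either gene, and MAF2, MAF3 and MAF1 were not called (log2 -0.20, 0.05 and -0.02). FLC was low and uneven, at 2.63, 0.587 and 0.584 CPM in WT-16 and 0.269, 0.051 and 0.555 CPM in WT-hda6 (log2 -2.13, SE 0.75, edgeR adjusted p = 0.0665), was called without WT-16 replicate 3 (adjusted p = 0.0232), by DESeq2 (0.0335) and without a filter (0.037), and a share of 0.681 of its exonic bases overlaps the other strand. Across the 16 h groups MAF5 varied widely. It was at 27 ± 4.15 CPM in WT-16, 0.778 ± 0.199 in cue1 and 0.101 ± 0.0473 in msh1. In WT-hda6 it was at 1.12 ± 0.538 CPM, and in hda6 at 8.18 ± 0.8 CPM. The flowering integrators SOC1 and FT had log2 values of 0.19 and 0.80 and were not called, nor was SVP (-0.01). FT was near the detection limit, with a mean of 0.575 CPM in WT-16 (scaled over all 30 libraries), so its difference is weakly measured. Of the AP2-like repressors of flowering, TOE2 fell by 0.66 and AP2 by 0.49.

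Nitrate genes were mostly higher, with 9 of 16 called higher and 2 lower (median 0.46), but 6 were called higher without WT-16 replicate 2. The nitrate reductases NIA1, at 93.4, 99.2 and 93.6 CPM in WT-16 and 185, 242 and 211 CPM in WT-hda6 (log2 1.16, SE 0.11, edgeR adjusted p = 3.66e-05), and NIA2, at 456, 401 and 542 CPM in WT-16 and 811, 1087 and 1034 CPM in WT-hda6 (log2 1.07, SE 0.14, edgeR adjusted p = 0.000417), and the nitrite reductase NIR1, at 121, 113 and 157 CPM in WT-16 and 216, 226 and 230 CPM in WT-hda6 (log2 0.78, SE 0.12, edgeR adjusted p = 0.00107), were higher in every WT-hda6 library. The glutamate dehydrogenase GDH2 fell by 0.87.

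Photosynthesis genes of the nucleus differed little. Of 45, 5 were called higher and 0 lower, with a median of 0.14, against 3 without WT-16 replicate 1 and 2, 10 and 1 without WT-hda6 replicates 1, 2 and 3. LHCB1.3, a light-harvesting protein with one of the highest counts, was at 16650, 17770 and 16710 CPM in WT-16 and 18880, 17750 and 22610 CPM in WT-hda6 (log2 0.21, SE 0.15, edgeR adjusted p = 0.335). RBCS1B, a Rubisco small subunit whose reads may be shared with its copies, was at 423, 575 and 671 CPM in WT-16 and 800, 1010 and 869 CPM in WT-hda6 (log2 0.68, SE 0.16, edgeR adjusted p = 0.0113). In chlorophyll synthesis, 5 of 14 were higher and 1 lower. The light-dependent reductase PORB was at 1131, 1315 and 1069 CPM in WT-16 and 578, 561 and 728 CPM in WT-hda6 (log2 -0.91, SE 0.13, edgeR adjusted p = 0.000649), while its relative PORA, known from seedlings, rose by 0.81 (not called with 12 wild-type libraries, adjusted p = 0.0505). The chlorophyll list had 1 higher call without WT-16 replicate 1 or 2 and without WT-hda6 replicate 1 or 3. Of the catalases, which remove hydrogen peroxide, CAT2, known to peak in the morning, rose by 0.67, and CAT3, known to peak in the evening, had a log2 of -1.25.

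Among other defence, protein folding and housekeeping lists the split of calls varied. Salicylic acid genes had 2 higher and 3 lower of 19, with PR2, a glucanase, at 484, 326 and 310 CPM in WT-16 and 124, 227 and 140 CPM in WT-hda6 (log2 -1.19, SE 0.23, edgeR adjusted p = 0.00346). PR1, its usual companion, was at 45.9, 45.2 and 68.9 CPM in WT-16 and 96, 164 and 71.3 CPM in WT-hda6 (log2 1.05, SE 0.26, edgeR adjusted p = 0.0154), with a log2 of 0.64 without WT-hda6 replicate 2 and no call without WT-16 replicate 2 (adjusted p = 0.07). It was also not called by DESeq2 (adjusted p = 0.0616), with 12 wild-type libraries (0.202) or with all 16 h libraries (0.118). The salicylic acid list had 4 higher calls without WT-16 replicate 1, 0 without WT-16 replicate 2 and 1 without WT-hda6 replicate 2. Endoplasmic reticulum folding genes had 8 lower and 0 higher of 12 (median -0.51), but 3 and 5 lower calls without WT-16 replicates 1 and 2, and 2 and 3 without WT-hda6 replicates 1 and 3. BIP1, the chaperone of that compartment, was at 510, 421 and 371 CPM in WT-16 and 240, 322 and 272 CPM in WT-hda6 (log2 -0.64, SE 0.14, edgeR adjusted p = 0.00774). Of 19 cell division genes and of 17 DNA methylation and silencing genes, 0 were called in either direction by edgeR and 0 by DESeq2, with 4 and 0 at an unadjusted p under 0.05, whereas 2 of each were called higher without WT-16 replicate 3. Cytosolic ribosomal proteins had 14 higher and 20 lower of 236 (median 0.01), and pentatricopeptide repeat proteins, which act on organelle transcripts, 6 higher and 7 lower of 238 (median -0.09). MATE efflux carriers and glutathione S-transferases, families picked after the values were seen, had 17 and 15 lower calls among 40 and 33 tested, and 1 and 4 higher calls. Several of these counts moved with single libraries. Ribosomal proteins had 4, 4 and 40 higher calls without WT-16 replicates 1, 2 and 3, and 3 without WT-hda6 replicate 1 or 3. Their lower calls numbered 10 and 13 without WT-16 replicates 2 and 3, and 12, 11 and 13 without WT-hda6 replicates 1, 2 and 3. Pentatricopeptide proteins had 3 higher and 4 lower calls without WT-16 replicate 1 or 2, 2 higher without WT-hda6 replicate 1 and 3 lower without WT-hda6 replicate 3. The higher glutathione S-transferase calls numbered 2, 1 and 2 without WT-16 replicates 1, 2 and 3, and 0, 2 and 2 without WT-hda6 replicates 1, 2 and 3.

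Among called nuclear genes that averaged 5 CPM or more in either group and whose groups did not overlap, the 12 lowest log2 values belonged to CYP94B3, PDF1.2c, TPS10, RAP2.6, AT5G10625, RNS1, PDF1.3, IGMT5, NATA1, AT4G17470, TPS03 and CSLA01. Several of these are known from wounded or jasmonate-treated leaves, although only CYP94B3 was in the jasmonate list. TPS10, a terpene synthase, was at 25.4, 32.8 and 6.33 CPM in WT-16 and 0.0448, 0 and 0.389 CPM in WT-hda6 (log2 -7.25, SE 0.83, edgeR adjusted p = 0.000143). RNS1, a secreted ribonuclease induced by wounding and phosphate shortage, was at 21.7, 17.4 and 16.7 CPM in WT-16 and 0.179, 0.051 and 0.5 CPM in WT-hda6 (log2 -6.28, SE 0.32, edgeR adjusted p = 4.92e-07). NATA1, which acetylates ornithine and putrescine, was at 144, 149 and 214 CPM in WT-16 and 2.6, 2.96 and 4.16 CPM in WT-hda6 (log2 -5.71, SE 0.21, edgeR adjusted p = 8.75e-08). IGMT5, a methyltransferase of indole glucosinolates, was at 83, 58.4 and 33.5 CPM in WT-16 and 0.806, 1.07 and 1.33 CPM in WT-hda6 (log2 -5.78, SE 0.36, edgeR adjusted p = 2.27e-06). WT-hda6 was near 0 or at a few CPM in all these genes, far below every WT-16 library, and TPS10 had its lowest WT-16 value in replicate 3. RAP2.6, an ethylene response type transcription factor, had 537 counts over WT-16 and 4 over WT-hda6.

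The 12 highest values belonged to AT4G36850, THI2.2, AT1G30250, AT5G03545, AT3G23510, CER4, ADS1, AT5G37940, AT5G19190, ACA1, AT5G00875 and DIR1. AT4G36850, a membrane protein with a PQ-loop repeat, was at 1.77, 3.87 and 6.69 CPM in WT-16 and 44.8, 23.2 and 22.7 CPM in WT-hda6 (log2 2.86, SE 0.37, edgeR adjusted p = 0.00034). THI2.2, a thionin, was at 0.909, 1.29 and 1.66 CPM in WT-16 and 15.1, 5.51 and 7.38 CPM in WT-hda6 (log2 2.85, SE 0.38, edgeR adjusted p = 0.000413). ACA1, an alpha carbonic anhydrase, was at 15.6, 15.7 and 24.7 CPM in WT-16 and 98.2, 85.2 and 77.1 CPM in WT-hda6 (log2 2.21, SE 0.17, edgeR adjusted p = 9.83e-06), and a share of 0.103 of its exonic bases is overlapped by the other strand. ADS1, a fatty acid desaturase, was at 2.17, 2.11 and 3.9 CPM in WT-16 and 9.31, 14.8 and 22 CPM in WT-hda6 (log2 2.46, SE 0.32, edgeR adjusted p = 0.000329). WT-hda6 replicate 1 was the high point of AT4G36850 and THI2.2. That the other 2 WT-hda6 libraries lay above all of WT-16 follows from the rule that the groups must not overlap. DIR1, a lipid transfer protein of systemic resistance, lies entirely within exonic overlap on the other strand (share 1), so its reads cannot be assigned to one strand.

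The only other pair of wild types of the same day length, at 12 h, shares no library with this one. It compares the wild type for sal1 with the wild type whose title names no mutant, and 7104 of 20898 tested genes were called (34%; 17% higher, 17% lower). Called genes with a log2 of at least 1 numbered 2091 (10%) higher and 483 (2.31%) lower, 12.3% together, and the groups did not overlap in 10289 (49.2%). In that pair, reads given to no gene feature made up 2.58% to 5.78% of one group and 48.5% to 48.7% of the other. The part of this in the values was not tested. Across 20235 genes tested in both pairs the log2 differences had r = 0.17 (Spearman rho = 0.151), a description over genes that share libraries within each pair. The jasmonate list had 17 lower and 0 higher of 26 at 12 h (median -0.89), and the cold list 9 lower and 0 higher of 12 (median -1.39). LOX2 (log2 -1.43, SE 0.22, edgeR adjusted p = 0.00189) and KIN1 (log2 -2.48, SE 0.20, edgeR adjusted p = 7.01e-05) were among them. Starch genes had 14 lower and 0 higher of 18 at 12 h. The morning clock list had 1 higher and 11 lower of 14 at 12 h (median -0.75), against 8 higher and 1 lower at 16 h, and the evening list 4 higher and 4 lower of 15. CCA1 was lower at 12 h (log2 -1.68, SE 0.15, edgeR adjusted p = 9.9e-05) and MAF5 higher (log2 2.11, SE 0.62, edgeR adjusted p = 0.0329). The MAF5 call at 12 h was lost without wild type replicate 1 (adjusted p = 0.0758) and without replicate 2 (0.0797) or 3 (0.115) of the wild type for sal1. Photosynthesis genes had 0 higher and 33 lower of 45 at 12 h (median -0.87). The differences between the pairs were not tested.

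The 16 h mutants give a further comparison that uses no wild-type library, in which set and genotype cannot be told apart. In hda6 against the mean of cue1 and msh1, 9276 of 21073 genes were called (44%). Its log2 differences had r = 0.623 (rho = 0.595) with those of the wild types over 20328 genes. Of the 4397 genes called between the wild types and tested there, 90.5% had the same sign, against 71.4% of all genes. Those called in both with the same sign numbered 3093, which is 70.3% of the wild-type calls and 34.7% of the calls of that comparison. The jasmonate list had 20 lower and 0 higher of 24 there (median -1.32), the cold list 11 lower of 12 (median -2.04), and the shade list 8 higher of 10 (median 1.82). The morning clock list had 11 higher and 1 lower (median 2.89) and the evening list 1 higher and 12 lower (median -3.43). Other lists did not share the pattern of the wild types there. The aliphatic glucosinolate list had 2 higher and 0 lower of 12 (median -0.10), against 0 and 10 between the wild types. The shoot meristem list had 0 calls among 7 tested genes, against 4 higher of 4, and the FLC and MAF list 2 higher and 0 lower of 6, against 0 and 2. The differences between these comparisons were not tested.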

How the data were processed

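Leaf RNA of 30 libraries was measured by RNA sequencing. Reads were paired, of 150 bases. The submitters' processing notes name Trim Galore 0.6.6, cutadapt 2.8, STAR 2.7.10a and the TAIR10 build. No source used here gives the counting tool or its strand setting, so reads of overlapping genes on opposite strands may be mixed. The labels name a DNA extraction kit, although they give the molecule as total RNA. The authors deposited raw counts per gene for each library, with 34262 identifiers and 5 totals that name no gene, which were left out of library sizes and tests (the share assigned to no gene is given with the results). Plastid and mitochondrial genes are listed at 0 in every library, so the results cover nuclear genes.

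Counts were tested with the edgeR 4.0.16 quasi-likelihood test in R 4.3.3, with TMM scaling, a minimum count of 10 (filterByExpr) and Benjamini-Hochberg adjustment over all tested genes. The fit held the 6 libraries of the pair and no covariate. CPM are TMM-scaled, and the standard error (SE) is the log2 difference divided by the square root of F. Groups came from the sample titles. The test on counts was checked on simulated data. The labels say biological replicates, but do not say whether each is 1 plant or a pool.

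Named genes were the 12 highest and 12 lowest called log2 values at a mean of at least 5 CPM without overlap, from each list with 3 or more calls the 3 genes of lowest adjusted p, all clock and FLC/MAF genes, and QQS. Beyond this rule, 50 genes were named after their values were seen, among them STM, MAH1, WSD1, KCS1, the JAZ genes, MYC2, AOS, OPR3, JAR1, VSP1, VSP2, PDF1.2, ST2A, COR78, the CBF genes, ERD10, LDOX, TT4, FLS1, NIR1, LHCB1.3, GPT2 and the uncalled members of lists. The members and the gene lists were chosen with earlier results of these data known. Sequences, gene positions and names came from RefSeq TAIR10.1, in which all 32548 nuclear identifiers were found. Alternatives were DESeq2 1.42.0, other size factors, other filters, wider fits, a replicate block and leaving out each library.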

Additional observations from a re-analysis of the deposited data

How the results depend on the processing

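Between the 16 h wild types the count of called genes, 4419, became 4173 with DESeq2, 4443 with RLE size factors, 4559 without a filter, 3909 at 5 CPM or more in 3 libraries, 4280 with all 12 wild-type libraries and 4824 with all 16 h libraries. Requiring a log2 of at least 1 left 1063. Leaving out 1 library gave 2656 to 4741. At 12 h, 7104 calls became 2574 at a log2 of at least 1, and 4949 to 6897 without 1 library. Same-numbered replicates did not deviate together (correlations -0.097, -0.0314 and -0.00901). With 3 libraries per group this cannot settle whether a number pairs samples, and the labels do not say so. With a replicate block the calls numbered 3651 at 16 h and 5584 at 12 h.

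Of 216 named genes 186 were called, and 154 of these lost their call in no alternative run that tested them. The filter of 5 CPM in 3 libraries left some named genes untested, among them COR27 and BOA. The sign turned only in genes that were not called in the reported fit. ZTL was 0.0026 at 5 CPM or more, and -0.111 to 0.0476 without 1 library. With 12 wild types and with all 16 h libraries, PRR9 was -0.00247 and -0.00246, and P5CS1 was -0.00279 and -0.0030. Without 1 library PRR9 ran from -0.0938 to 0.0693, P5CS1 from -0.0641 to 0.0875, MAF1 from -0.0547 to 0.0122 and SVP from -0.102 to 0.0311. CO ran from -0.398 to 0.263, RVE2 from -0.189 to 0.542, RD29B from -0.697 to 0.535 and AT5G52660 from -0.234 to 0.0245. CER6 ran from -0.0682 to 0.117, MYB34 from -0.269 to 0.0325, MAF3 from -0.0481 to 0.138, RAB18 from -0.575 to 0.296 and MYB51 from -0.020 to 0.286. The cause was not tested. Counts of 4 or fewer per group limit the log2 values of COR27, CYP94B3 and RAP2.6.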
